A study of Homo sapiens with 8 samples.

Results

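Long noncoding RNAs with a place in prostate cancer or lineage work, PCA3, PCGEM1, PCAT1, MALAT1, NEAT1, MEG3, H19 and DUBR, were followed through every library of the MYCL series, as 8 of the 78691 genes in the count table. They were chosen by gene symbol, and DUBR was selected on its fall with MYCL in C4-2B cells, so its values in that comparison are a description without a test. Each symbol had a single row, and 7 of the 8 had a count in at least 1 library. Poly(A)-selected RNA from 2 human prostate cancer cell lines was sequenced in 8 libraries, 2 for each of 4 conditions. C4-2B is an adenocarcinoma line, and NCI-H660 is a neuroendocrine prostate cancer line. C4-2B cells carried a lentiviral vector in which the EF1A promoter drove human MYCL together with EGFP, or the empty vector (control). NCI-H660 cells received shRNA against MYCL (shMYCL) or a non-targeting shRNA (shCtrl), which the design text places in an adenoviral vector and the sample labels describe as stable. Each line is a single line, the vectors differed between the lines, and the constitutive promoter set MYCL in C4-2B far above its level in NCI-H660.

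Long noncoding RNAs are transcripts that are not translated into a protein, many of them capped like messenger RNA. PCA3 is a prostate-restricted transcript measured in urine as a marker of prostate cancer, and PCGEM1 and PCAT1 are further prostate-associated transcripts. MALAT1 lies in nuclear speckles, NEAT1 is the scaffold on which paraspeckles assemble, and H19 and MEG3 are imprinted RNAs expressed from the maternal copy beside the paternally expressed growth regulators IGF2 and DLK1. DUBR, the DPPA2 upstream binding RNA, is studied in muscle differentiation. MYCL belongs to the MYC family of factors that bind E-box sequences in DNA as partners of MAX.

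A few stretches of sequence go with the results. The first 2 are the RefSeq promoter windows, 250 bases before to 50 bases after a transcript start on GRCh38.p14, of the members called in C4-2B, PCA3 (chr9:76764186-76764485, plus strand) and H19 (chr11:2001217-2001516, minus strand), with CpG pairs in capitals. The third is the 60 bases on hg38 that precede a 57-base small RNA annotated inside MALAT1 (chr11:65506057-65506116, plus strand), with runs of at least 5 A or T in capitals, shown because MALAT1 carries its A tract in the genome rather than having it added by the usual poly(A) machinery.
PCA3 promoter: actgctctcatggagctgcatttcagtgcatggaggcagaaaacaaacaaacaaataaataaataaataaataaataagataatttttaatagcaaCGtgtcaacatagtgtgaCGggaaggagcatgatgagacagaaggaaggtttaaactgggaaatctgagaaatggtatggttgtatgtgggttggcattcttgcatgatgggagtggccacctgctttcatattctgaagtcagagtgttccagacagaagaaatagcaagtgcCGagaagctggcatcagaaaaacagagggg
H19 promoter: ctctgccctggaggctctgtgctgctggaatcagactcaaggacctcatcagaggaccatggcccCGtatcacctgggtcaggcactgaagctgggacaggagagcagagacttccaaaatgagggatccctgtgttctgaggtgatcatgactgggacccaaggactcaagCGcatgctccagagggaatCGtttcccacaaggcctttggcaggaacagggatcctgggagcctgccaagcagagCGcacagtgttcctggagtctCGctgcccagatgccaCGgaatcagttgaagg
MALAT1 3′ end: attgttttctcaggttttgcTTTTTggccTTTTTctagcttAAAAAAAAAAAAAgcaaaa
Neither window held CACGTG, the E-box of MYC and MAX, on either strand. PCGEM1, MALAT1 and MEG3 also had a window, and none of the windows of these 5 members held it. Of 35116 promoter windows of the same length, 7.26% held CACGTG. DUBR, NEAT1 and PCAT1 had no window in the table. In the 300 bases shown, PCA3 had 3 CpG pairs and H19 had 6, against a median of 14 over all windows. Of the last 20 bases of the MALAT1 stretch, 17 were A.

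Library totals ran from 15177071 to 32344170 estimated counts, and mitochondrial genes took 9.63% to 10.7% of them in C4-2B and 3.5% to 3.83% in NCI-H660. MYCL itself had 371 and 320 counts in C4-2B control, 65524 and 70253 in C4-2B MYCL, 1863 and 1602 in shCtrl and 165 and 198 in shMYCL libraries. It was 8.26 higher (log2, SE 0.13) with overexpression and fell by 3.06 on the log2 scale (SE 0.15) with shMYCL. All 7 luminal markers, among them KLK3, were lower in shCtrl than in C4-2B control cells, and all 7 neuroendocrine markers were higher, in accord with the labelled lines. The replicate libraries were not described as separate cultures in every label, so p-values measure only the spread between these libraries, which may be technical in part. Counts are estimated, and the limit of 3 counts set for a count of 0 covers counting error only. Intervals given for fold changes come from the same fits as the p-values, and they include the spread between these libraries.

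On the per-length scale (TPM, abundance scaled by transcript length and library size), the members fell into 3 tiers. MALAT1 and NEAT1 were abundant. In C4-2B control cells NEAT1 stood at 200 ± 16.9 TPM and MALAT1 at 197 ± 11.9 TPM (mean ± SD, n = 2), ranks 578 and 592 of 27295 genes above 0, and their ranges overlapped. Next came DUBR at 9.16 ± 0.32, PCAT1 at 4.97 ± 0.342, PCA3 at 1.85 ± 0.0431 and H19 at 0.957 ± 0.129 TPM, with no overlap between neighbours in this order. PCGEM1 and MEG3 were at 0. In C4-2B MYCL cells the order below the abundant pair became PCAT1 at 3.59 ± 1.79, H19 at 3.32 ± 0.407, DUBR at 1.33 ± 0.235 and PCA3 at 0.47 ± 0.05 TPM, and the ranges of PCAT1 and H19 overlapped. In shCtrl cells MALAT1 (269 ± 37 TPM) was above NEAT1 (136 ± 0.0789 TPM), and PCAT1 (2.83 ± 0.745 TPM), DUBR (0.672 ± 0.453 TPM) and PCA3 (0.129 ± 0.0449 TPM) followed. With shMYCL the values were 397 ± 82.9 for MALAT1, 126 ± 4.13 for NEAT1, 1.44 ± 0.324 for PCAT1, 0.29 ± 0.161 for DUBR and 0.136 ± 0.0904 TPM for PCA3, and the last pair overlapped.

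**Figure D1:**
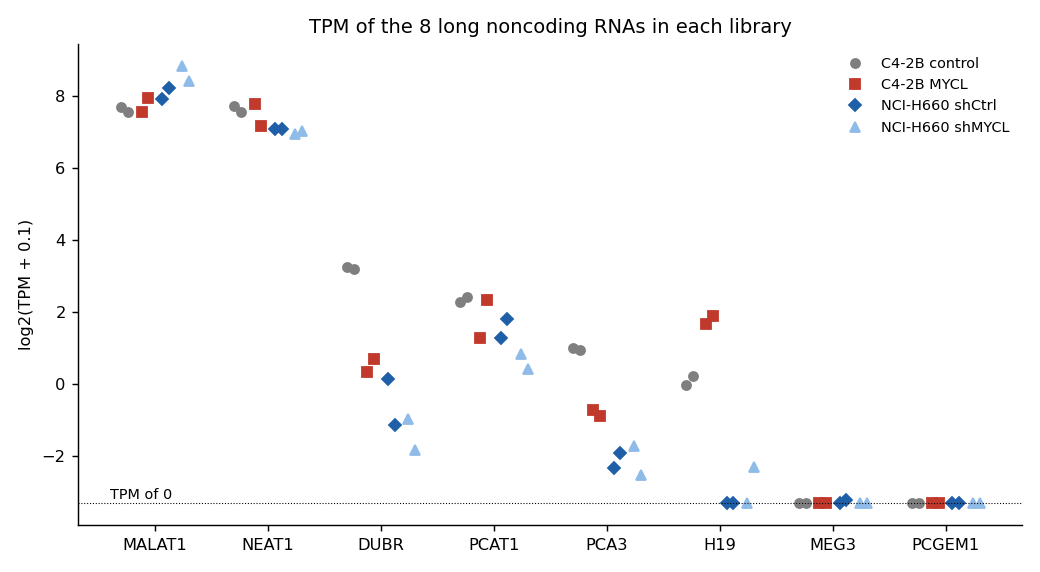
Level of each lncRNA in each library as log2(TPM + 0.1), with 1 symbol per library and colours for the 4 conditions; the dotted line marks a TPM of 0. MALAT1 and NEAT1 lie far above the rest in all 8 libraries, DUBR, PCA3 and H19 are higher in C4-2B control than in both NCI-H660 conditions, and PCGEM1 and MEG3 lie at or next to 0.

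MYCL overexpression in C4-2B asked which transcripts of an adenocarcinoma cell move when MYCL is raised. PCA3 fell and H19 rose, while MALAT1, NEAT1 and PCAT1 did not pass the test. Of the 7 members other than DUBR, 5 had enough counts to be tested, and 2 were called (an adjusted p under 0.05 in edgeR's quasi-likelihood test and a log2 fold change of at least 0.5 in size). Over all 16866 genes tested, 19.9% were called, a share against which 2 of 5 is read only as a description.

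PCA3 (ENSG00000225937) lies at chr9:76691980-76863307 on the plus strand of hg38, inside the protein-coding gene PRUNE2, which runs the other way. The control libraries held 160 and 115 counts of it and the MYCL libraries 24 and 24, or 4.92 and 4.83 against 1.30 and 1.37 CPM (normalized counts scaled by library size). The groups did not overlap, and both MYCL libraries were well below both controls. PCA3 fell by 1.86 on the log2 scale (SE 0.27, a 3.64-fold difference, edgeR adjusted p = 9.76e-04). PRUNE2 also fell, from 604.6 and 616.3 to 311.3 and 323.7 CPM, a log2 fold change of -0.94 (edgeR adjusted p = 4.25e-05). The exons of PCA3 share 7.48% of their bases with exons of PRUNE2, and whether the counting used strand is not given in the sources used here, so reads from PCA3 and from PRUNE2 there cannot be told apart. Per 1000 counts of PRUNE2 there were 8.13 and 7.84 counts of PCA3 in control and 4.18 and 4.24 in MYCL libraries, so PCA3 was lower relative to PRUNE2 as well. GCNT1, a glycosyltransferase gene and the nearest protein-coding gene outside this pair at 40777 bases, fell by 1.27 on the log2 scale (edgeR adjusted p = 4.25e-05).

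H19 (ENSG00000130600, chr11:1995166-2004552, minus strand) had 49 and 43 counts without added MYCL and 103 and 125 with it, from 1.51 and 1.81 CPM to 5.59 and 7.15 CPM. Both MYCL libraries were above both controls. H19 rose by 1.95 on the log2 scale (SE 0.27, a 3.85-fold difference, edgeR adjusted p = 8.05e-04). IGF2, the insulin-like growth factor gene 124560 bases away, rose too, from 8 and 18 counts to 97 and 73 counts, a log2 fold change of 3.29 (edgeR adjusted p = 9.59e-04). Its size rested on the control libraries, since it was 2.62 without control replicate 1 and 4.23 without control replicate 2 (edgeR adjusted p = 5.20e-05 and 2.96e-07). MRPL23, the coding gene on the other side of H19, was not called. Of the 13 imprinted genes around H19 and MEG3 that were in the table, 8 were tested in C4-2B and 4 were higher and 0 lower, with a median log2 fold change of 0.80 against 0.00 over all genes tested. Of all 16866 genes tested there, 1986 were called higher. The 4 imprinted genes called higher were IGF2, CDKN1C, a cyclin-dependent kinase inhibitor (2.62, edgeR adjusted p = 4.69e-06), KCNQ1, a potassium channel (2.42, adjusted p = 0.00138), and PHLDA2, a growth regulator of the placenta (1.00, adjusted p = 1.85e-04). KCNQ1 was 1.89 without control replicate 1 and 3.11 without control replicate 2. In NCI-H660, 8 genes of this list were tested, and 0 were higher and 1 lower with shMYCL, with a median of 0.24. The lower gene was CDKN1C, with a log2 fold change of -0.795 (edgeR adjusted p = 0.00681). Of all 16980 genes tested in NCI-H660, 1526 were called lower.

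**Figure D2:**
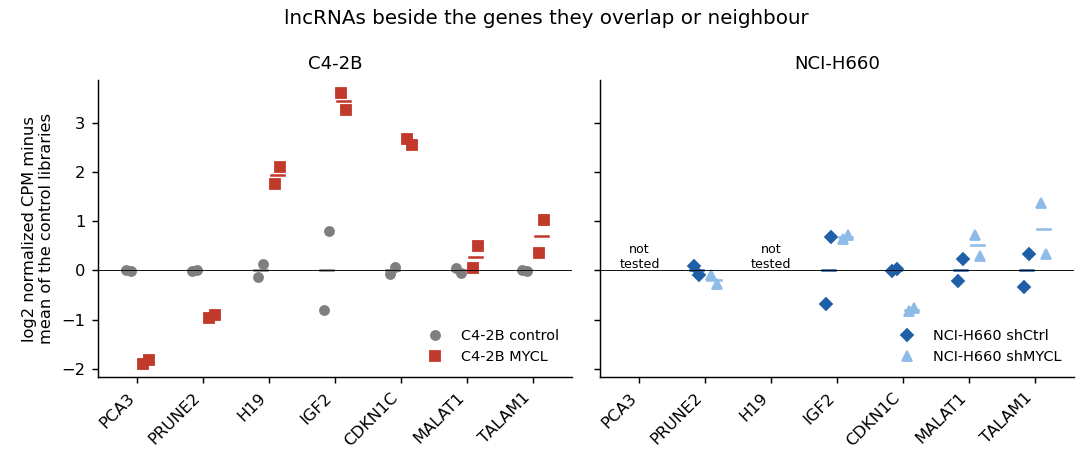
PCA3, H19 and MALAT1 beside genes that overlap or neighbour them, and beside CDKN1C, which comes from the list of imprinted genes. Values are log2 normalized CPM minus the mean of the control libraries of the same line. Each symbol is 1 library and each bar the mean of 2. In C4-2B, PCA3 and PRUNE2 lie below 0 and H19, IGF2 and CDKN1C lie above 0 in both MYCL libraries, whereas in NCI-H660 PCA3 and H19 had too few counts to be tested.

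NEAT1 (ENSG00000245532, chr11:65422774-65445540, plus strand) had 612 and 500.7 CPM in control and 865 and 548.4 CPM in MYCL libraries. The groups overlapped, since only MYCL replicate 1 stood apart. The log2 fold change on counts was 0.34 (95% interval -0.07 to 0.76, edgeR adjusted p = 0.174), and on log2(TPM + 1) it was -0.17 (limma adjusted p = 0.493), so its direction changed with the scale. It was -0.012 without MYCL replicate 1 and 0.63 without MYCL replicate 2 (edgeR adjusted p = 0.931 and 2.12e-05).

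Over all genes tested in C4-2B, the median log2 fold change was -0.14 on log2(TPM + 1) against -0.002 on counts. Beside that shift, the disagreement between counts and TPM of NEAT1 can be restated in part as the transcript length that their ratio implies. That length was not the same in all libraries. This length, scaled in each library on 478 to 660 genes with a single annotated transcript of 1500 to 10000 bases, was 3749 and 3482 bases in C4-2B control and 4813 and 4325 bases in C4-2B MYCL. It was 3098 and 3220 bases in shCtrl and 3146 and 2964 bases in shMYCL libraries. The values of C4-2B MYCL were above those of the other 6 libraries. NEAT1 has a short polyadenylated form and a long form that builds paraspeckles, and the annotated transcripts run from 512 to 22743 bases. The central range of the single-transcript genes was 0.966 to 1.07 times their own length at its widest. Such genes have no other transcript, so this does not give the spread for genes with several, such as NEAT1. DUBR, at 19 and 16 counts, gave 2051 and 4201 bases in the shCtrl libraries. For MALAT1 the length was 5135 to 5379 bases in the 4 C4-2B libraries and 6595 to 6963 bases in the 4 NCI-H660 libraries. The methods of the study describe TPM as counts divided by gene lengths, and a fixed length per gene would give the same value in each library, so for these genes that description and the files differ. These lengths were looked at after the values were seen and were not tested.

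**Figure D3:**
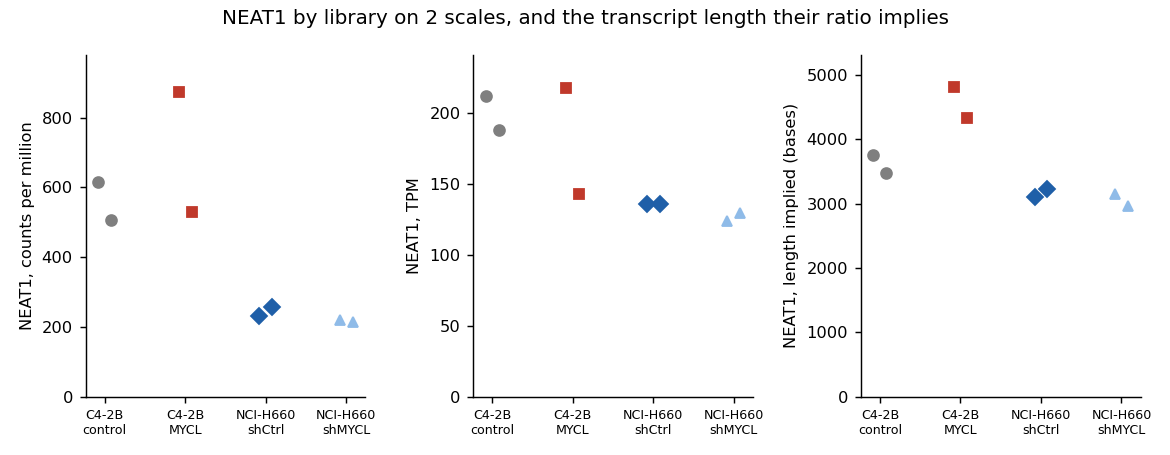
NEAT1 in each library as CPM of the unnormalized library total (left), as TPM (middle) and as the transcript length in bases implied by their ratio (right), all axes from 0, with 2 libraries per condition. C4-2B MYCL replicate 1 is the highest on the first and second scales, and replicate 2 is not. The implied length of both C4-2B MYCL libraries, 4813 and 4325 bases, is above that of the other 6. The NEAT1 difference in C4-2B is upward on counts and downward on TPM, where the median over all genes tested was -0.14 (log2(TPM + 1)).

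Proteins that assemble on NEAT1 were followed as a list of 20. In C4-2B all 20 were tested, 7 were lower and 0 higher with MYCL, and their median log2 fold change was -0.43 against 0.00 over all genes tested. Of all 16866 genes tested there, 1369 were called lower. RBM14, needed for paraspeckle assembly, fell by 1.03 on the log2 scale (edgeR adjusted p = 8.49e-05). CPSF6, a subunit of a 3′ end processing complex, fell by 0.67 (edgeR adjusted p = 5.29e-04), and SFPQ, a core paraspeckle protein, fell by 0.61 (adjusted p = 9.88e-04). In NCI-H660 the median was 0.05 (log2), with 1 of 20 higher and 0 lower with shMYCL. That one was the splicing factor SRSF10, 0.65 higher (edgeR adjusted p = 4.52e-04).

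MALAT1 (ENSG00000251562, chr11:65497640-65508073, plus strand) had 833.2 and 769.4 CPM in C4-2B control and 833.4 and 1124 CPM in C4-2B MYCL libraries. The lower MYCL library was level with the higher control. The log2 fold change was 0.29 (95% interval 0.01 to 0.57, edgeR adjusted p = 0.104), and it ran from 0.06 to 0.50 when single libraries were removed. Without MYCL replicate 1 it was 0.50 (edgeR adjusted p = 1.28e-06), just under the minimum size for a call.

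PCAT1 (ENSG00000253438, a gene of 48 merged exons on the plus strand) had counts of 171 and 142 in the control group against 44 and 109 with MYCL, or 5.26 and 5.96 against 2.39 and 6.23 CPM. The 2 MYCL libraries lay on either side of both controls. The log2 fold change was -0.38 (95% interval -1.23 to 0.46, edgeR adjusted p = 0.466). It was 0.16 without MYCL replicate 1 and -1.23 without MYCL replicate 2 (edgeR adjusted p = 0.642 and 0.00429), so its direction rested on 1 library. The PCAT1 model shares 7.62% of its exon bases with LRATD2 on the other strand and 4.59% with POU5F1B on the same strand, and reads there cannot be told apart. MYC, the coding gene 316384 bases beyond PCAT1, had a log2 fold change of -0.44 in C4-2B (edgeR adjusted p = 0.00481), under the minimum size for a call, which it passed with limma on log2(TPM + 1) (-0.60, adjusted p = 0.0076) and without MYCL replicate 2 (-0.57, edgeR adjusted p = 3.28e-05).

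DUBR (ENSG00000243701, chr3:107220744-107348464, plus strand), given as a description, went from 910 and 584 counts to 60 and 110 counts. These are 27.97 and 24.53 CPM against 3.25 and 6.29 CPM, a log2 difference of -2.47. It was -2.05 without MYCL replicate 1 and -3.01 without MYCL replicate 2. In NCI-H660, which had no part in choosing it, DUBR was close to the lower limit of the counts, with 19 and 16 in shCtrl and 8 and 9 in shMYCL libraries. Its log2 fold change there was -0.84 (95% interval -2.01 to 0.33, edgeR adjusted p = 0.291), which does not pass the test. Of the coding genes next to DUBR, CBLB, a ubiquitin ligase gene 1351192 bases away, had a log2 fold change of 0.54 in C4-2B (edgeR adjusted p = 0.0395), and the call was lost without MYCL replicate 2 (0.25, adjusted p = 0.239), without control replicate 1 (0.42, adjusted p = 0.116) and with limma on log2(TPM + 1) (0.33, adjusted p = 0.19). CCDC54 had 0 counts in all 8 libraries.

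**Figure D4:**
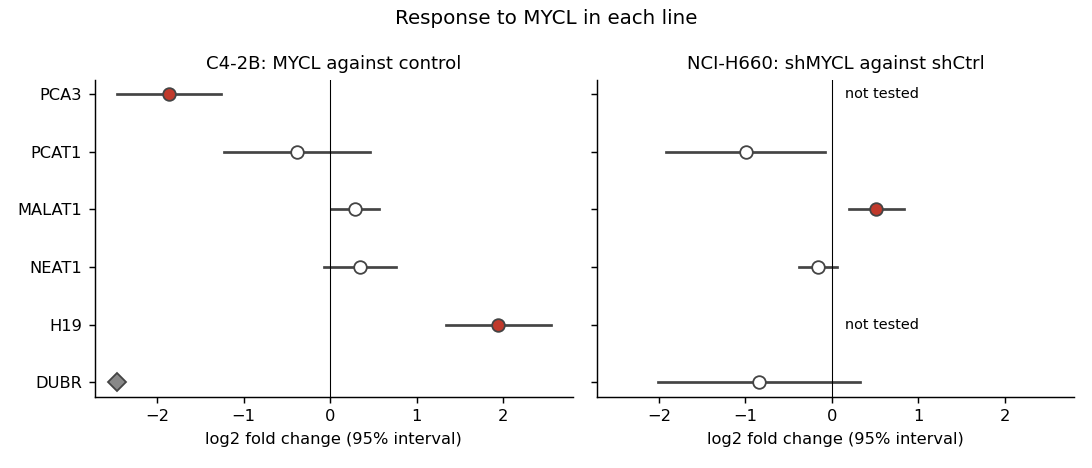
Log2 fold change of each testable lncRNA with MYCL in C4-2B (left) and with shMYCL in NCI-H660 (right); points are estimates, lines 95% intervals, filled circles were called and open circles were not, and the grey diamond without an interval is DUBR, which was chosen on that comparison. PCA3 at -1.86 and H19 at 1.95 stand away from 0 in C4-2B, and MALAT1 at 0.52 is the called member in NCI-H660; NEAT1 in C4-2B, 0.34 here, was -0.17 on TPM.

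Knockdown in NCI-H660 asked the reverse question in a neuroendocrine cell. MALAT1 was higher with shMYCL, and the other testable members were not called. Of the 8 members, 4 were tested and 1 was called, against 16.2% of 16980 genes called in all and 7.18% called higher. PCA3, H19, PCGEM1 and MEG3 had too few counts for a test.

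MALAT1 had 882.7 and 1203 CPM in shCtrl and 1710 and 1270 CPM in shMYCL libraries. The groups did not overlap, but shCtrl replicate 2 and shMYCL replicate 2 were close. MALAT1 was 0.52 higher (log2, SE 0.15, 95% interval 0.20 to 0.83, edgeR adjusted p = 0.0198). The call was lost without shCtrl replicate 1 (0.32, edgeR adjusted p = 0.111), without shMYCL replicate 1 (0.29, adjusted p = 0.157) with DESeq2 (0.52, adjusted p = 0.243) and with limma on log2(TPM + 1) (0.55, adjusted p = 0.0733). The direction was upward in each of these.

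TALAM1, an antisense lncRNA, covers 77.8% of the exon bases of MALAT1 on the other strand, so reads of the pair cannot be told apart without strand. TALAM1 had 59.42 and 95.83 CPM in shCtrl and 195.3 and 94.92 CPM in shMYCL libraries, with overlapping groups and a log2 fold change of 0.90 (edgeR adjusted p = 0.0133). Without shMYCL replicate 1 it was 0.30 (edgeR adjusted p = 0.249), without shCtrl replicate 1 it was 0.60 (adjusted p = 0.0587), and it was not called with DESeq2 or with limma on log2(TPM + 1) (adjusted p = 0.317 and 0.134). In C4-2B the log2 fold change of TALAM1 was 0.73 (edgeR adjusted p = 0.0111), and 0.35 without MYCL replicate 2 (adjusted p = 7.92e-04), under the minimum size for a call. That call was also lost with DESeq2 (0.74, adjusted p = 0.0894), in the fit of all 4 groups (0.73, edgeR adjusted p = 0.0721) and with limma on log2(TPM + 1) (0.54, adjusted p = 0.052). Per 100 counts of MALAT1 there were 24.7 to 37.3 counts of TALAM1 in the C4-2B libraries and 6.73 to 11.4 in the NCI-H660 libraries.

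RNAs that end without a poly(A) tail moved in NCI-H660 together with MALAT1, in the other direction. Of 28 such RNAs, replication-dependent histone messages and small noncoding RNAs, 22 were tested there, 10 were lower and 0 higher with shMYCL, and the median log2 fold change was -1.17. Over all 16980 genes tested, 1526 were called lower, with a median of -0.003. The summed level of the 28, in CPM of the unnormalized library total, was 899 to 2097 in shCtrl and 464 to 602 in shMYCL libraries, so the shCtrl replicates themselves differed. Most of this sum came from RN7SL2 and RN7SL1, so it says little about the other RNAs of the list. RN7SK, another small noncoding RNA, had 873 and 1782 counts in shCtrl and 1665 and 831 in shMYCL libraries. RN7SL2 and RN7SL1, RNAs of the signal recognition particle, fell by 1.69 each (edgeR adjusted p = 4.98e-04 and 7.25e-04), the histone H1-5 fell by 2.10 (adjusted p = 3.44e-04) and RMRP, an RNA of a processing enzyme, fell by 2.00 (adjusted p = 0.0128). Without shCtrl replicate 2 the log2 fold changes of RN7SL2, RN7SL1 and RMRP were -0.94, -0.84 and -1.03, and RMRP was no longer called (edgeR adjusted p = 0.288). DESeq2 called neither RN7SL2 nor RN7SL1 (adjusted p = 0.0681 and 0.0857). In C4-2B, 19 of the 28 were tested, 5 were lower and 0 higher, with a median of -0.42. Over all 16866 genes tested there, 1369 were called lower, with a median of -0.002. The part of the RNAs without a tail in the MALAT1 result was not tested.

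NEAT1 had 232 and 255.7 CPM in shCtrl and 219.8 and 217.2 CPM in shMYCL libraries. Both shMYCL libraries were lower, by a log2 fold change of -0.16 (95% interval -0.38 to 0.06, edgeR adjusted p = 0.29). PCAT1 had 30 and 44 counts in shCtrl and 18 and 14 in shMYCL libraries, without overlap. Its log2 fold change was -0.996 (95% interval -1.92 to -0.07, edgeR adjusted p = 0.106), and it was called when genes under 10 counts in any library were left out (adjusted p = 0.0484). MYC was 0.78 higher (edgeR adjusted p = 0.00198) in these libraries, and the other 10 tested coding genes next to members were not called, with log2 fold changes from -0.49 to 0.57.

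**Figure D5:**
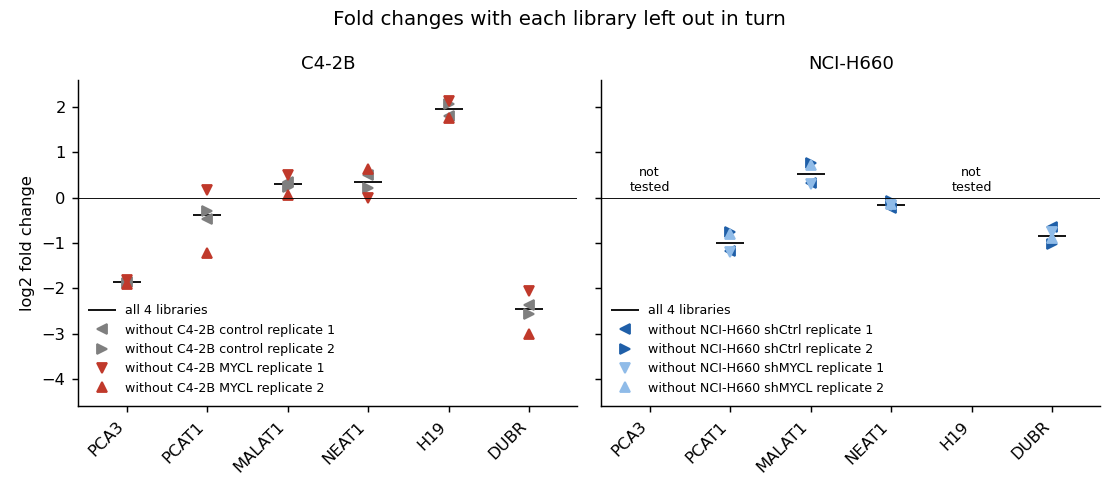
Log2 fold change of each testable lncRNA in each line with all 4 libraries (bars) and after removing each library (triangles). PCA3 and H19 in C4-2B stay at similar values, -1.90 to -1.81 and 1.75 to 2.12, whereas PCAT1 runs from -1.23 to 0.16 and NEAT1 from -0.012 to 0.63 (NEAT1 is also reversed on TPM).

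The members with almost no counts in one or both lines set the limits of these comparisons. PCA3 had 3 and 5 counts in shCtrl and 4 and 2 in shMYCL libraries, and H19 had 0 and 0 in shCtrl and 0 and 1 in shMYCL libraries. PCGEM1 had 0 counts in all 8 libraries. MEG3 had 1 count, in shCtrl replicate 2, and 0 in the others. A count of 0 allows up to 3 counts, which is 0.0928 to 0.198 CPM of the unnormalized library totals. DLK1, the coding gene next to MEG3, had 0 counts in all 4 C4-2B libraries and 30, 47, 50 and 44 in the NCI-H660 libraries.

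The responses of the lines to high against low MYCL were compared directly. MALAT1 differed, and it was the 1 called of 5 members tested other than DUBR, against 20.2% of 19605 genes at an adjusted p under 0.05. PCA3 and H19 are among the 5 through their C4-2B counts, and had too few counts in NCI-H660 to show a response there. With MYCL high, MALAT1 was 0.29 higher in C4-2B and 0.52 lower in NCI-H660, a difference of 0.80 on the log2 scale (95% interval 0.29 to 1.32, edgeR adjusted p = 0.0306). Counted together with TALAM1, the difference was 0.93 (edgeR adjusted p = 0.0208). It was not called with DESeq2 (0.82, adjusted p = 0.104) nor in 5 of the 8 fits that left out a library. For PCA3 the difference was -2.07 (95% interval -3.71 to -0.43, edgeR adjusted p = 0.0727), for PCAT1 -1.38 (adjusted p = 0.128) and for NEAT1 0.18 on counts and -0.28 on TPM (edgeR and limma adjusted p = 0.648 and 0.474). H19, with a single count in NCI-H660, had no usable estimate.

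Between the control conditions of the lines, 4 of 5 members tested other than DUBR were called and all 4 were lower in NCI-H660, where 69.8% of 19605 genes were called and 33.3% were called lower. PCA3 and H19 passed the filter only through their C4-2B counts, so a lower call in NCI-H660 was nearly fixed in advance for them. With at least 10 counts in every library neither was tested. The fit of all 4 groups has its own normalization. As a description, PCA3 stood there at 5.15 CPM in C4-2B control and 0.212 CPM in shCtrl. PCAT1 was lower by a log2 fold change of -1.59 (edgeR adjusted p = 0.0024) and NEAT1 by -1.35 (adjusted p = 4.98e-06). With limma on log2(TPM + 1) these were -0.65 and -0.55, and PCAT1 was not called (adjusted p = 0.0599 and 0.0223). H19 was at least 9.84-fold higher in C4-2B control, taking 3 counts per library in shCtrl as the limit. MALAT1 was level within its spread, with a log2 fold change of 0.22 (95% interval -0.14 to 0.58, edgeR adjusted p = 0.247). DUBR, as a description, had 27.8 CPM in C4-2B control and 0.94 CPM in shCtrl in the same fit. Cell line, vector and shRNA changed together in this comparison and cannot be told apart.

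Other lncRNAs gave a frame for the members. Over all genes tested, 19.9% were called in C4-2B and 16.2% in NCI-H660, and the counts below are read only as a description beside these shares. Of 21 further prostate cancer lncRNAs in the table, 13 were tested in C4-2B, where 1 was lower and 0 higher, and 8 in NCI-H660, where 1 was lower and 0 higher. DRAIC fell by 0.86 on the log2 scale with MYCL in C4-2B (edgeR adjusted p = 0.0201), a call lost without control replicate 1 (-0.71, adjusted p = 0.124). PCAT7 fell by 0.97 with shMYCL in NCI-H660 (edgeR adjusted p = 0.00291), a call lost with limma on log2(TPM + 1) (-0.76, adjusted p = 0.0809). Of 17 widely expressed lncRNAs, all tested in both lines, 2 were higher and 3 lower with MYCL in C4-2B, and 4 were higher and 1 lower with shMYCL in NCI-H660. MIR17HG, the host of the miR-17-92 cluster, fell by 1.19 with MYCL in C4-2B (edgeR adjusted p = 0.00195) and was 1.65 higher with shMYCL (adjusted p = 3.03e-06). OIP5-AS1, a cytoplasmic lncRNA, was 0.59 higher with MYCL (edgeR adjusted p = 3.60e-04) and fell by 0.67 with shMYCL (adjusted p = 2.78e-04). With limma on log2(TPM + 1) neither was called, at 0.18 in C4-2B (adjusted p = 0.109) and -0.46 in NCI-H660, under the minimum size (adjusted p = 0.0369). DANCR fell by 1.25 with MYCL in C4-2B (edgeR adjusted p = 4.11e-05), and SNHG1, a snoRNA host, was 0.92 higher with shMYCL (adjusted p = 2.89e-05).

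As a description of likeness, the 3 genes whose profiles over the 8 libraries lay nearest to each member were listed, by the distance between log2 CPM profiles centred on their own means, among 14349 genes. For H19 these were SYT12 (distance 0.56), PTGS1 (0.89) and BMP7 (0.93). For PCA3 they were MAP7-AS1 (0.81), ZNF883 (1.08) and PHLDA1 (1.10), and for DUBR they were MAP7-AS1 (1.41), PCA3 itself (1.59) and ASS1P13 (1.68). For NEAT1 the nearest named gene was ARHGAP19 (0.44), for MALAT1 it was ABHD11 (0.39), and for PCAT1 it was the mitochondrial ribosomal RNA MT-RNR1 (0.71). The points share library, depth and the contrast between the lines, which takes up most of each distance for genes that differ between them.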

How the data were processed

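Gene-level estimated counts and TPM values were deposited by the authors for 8 libraries. The estimated counts are not normalized, 34.4% of the values above 0 have a fractional part, and they were rounded before testing. The methods of the study describe the deposited TPM values as counts divided by Ensembl gene lengths, although the length implied for NEAT1 differed between libraries, and the TPM table holds 65535 of the 78691 genes. The labels give hg38; aligner, counting tool and use of strand are not given in the sources used here. The members, gene lists and tests were chosen with earlier results of these data known. A separate fit was made for each line in edgeR 4.0.16 (R 4.3.3), using TMM normalization and the filterByExpr filter. Quasi-likelihood tests gave p-values, adjusted over all genes tested by the Benjamini-Hochberg method. The fit of all 4 groups gave the difference between lines, called at an adjusted p under 0.05 alone, and the comparison of control conditions. The scripts were tested on simulated data. Positions and overlaps come from GENCODE 44 on hg38, with which 61458 of 78691 identifiers matched, 38096 in the same version, 1 of them a member. The 5 promoter windows come from RefSeq. Named list genes are at most 4 per list and line, the largest fold changes among those called with an average log2 CPM of at least 1, and overlapping and neighbouring genes are named where a result turns on them. The settings varied were the tool (DESeq2 1.42.0), relative log expression size factors, other filters and fold minima, limma 3.58.1 on log2(TPM + 1) or log2(TPM + 0.1), a replicate block, a fit of all 4 groups, each library left out, and, chosen after seeing the data, MALAT1 and TALAM1 summed. The replicates differed by more than sampling noise in every group (chi-square per degree of freedom 5.13 to 12.8). Some genes and motifs are not reported here.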

Additional observations from a re-analysis of the deposited data

Results flagged for a closer look

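MALAT1 stood out because its effect of high against low MYCL differed between the lines by a test of the difference itself, 0.80 on the log2 scale (edgeR adjusted p = 0.0306), being 0.29 higher in C4-2B and 0.52 lower in NCI-H660 with MYCL high. NEAT1 and PCAT1 were not called by that test, and PCA3 and H19 had too few counts in NCI-H660 for it to decide. The MALAT1 difference was not called with DESeq2 or with limma on log2(TPM + 1) or log2(TPM + 0.1). Most fits that left out a library did not call it either. The MALAT1 change within C4-2B was itself not called (edgeR adjusted p = 0.104).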

How the results depend on the processing

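With MYCL in C4-2B, 2 members were called in the main analysis and in each alternative that kept all libraries. With a library left out the count ran from 2 to 4, and it was 4 without MYCL replicate 2, when NEAT1 and PCAT1 joined PCA3 and H19. With shMYCL in NCI-H660 the count was 1. It was 0 with DESeq2, with limma on log2(TPM + 1) or log2(TPM + 0.1) and at a log2 fold change of at least 1, 2 with at least 10 counts in every library, and 0 to 1 with a library left out (0 without shCtrl replicate 1 and without shMYCL replicate 1). For the difference between lines the count was 1. It was 0 with DESeq2, with limma on log2(TPM + 0.1) and on unfiltered log2(TPM + 1), 2 without a filter (MALAT1 and PCAT1), 2 with limma on log2(TPM + 1) (PCA3 and H19 in place of MALAT1), and 0 to 1 with a library left out (0 without either C4-2B control, shCtrl replicate 1 or shMYCL replicate 1; without C4-2B MYCL replicate 2 the 1 called was PCAT1 in place of MALAT1). Between the control lines the count was 4, and 2 with at least 10 counts in every library, which removes PCA3 and H19 as low genes, and on unfiltered log2(TPM + 1). With limma on filtered log2(TPM + 1), PCAT1 was lost from the 4. Apart from the filter of at least 10 counts, the cause of these changes was not tested.

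Directions turned as follows. NEAT1 in C4-2B was -0.17 on log2(TPM + 1), with or without a filter, and -0.17 on log2(TPM + 0.1), against 0.34, and ran from -0.012 to 0.63 with a library left out. The NEAT1 difference between lines was -0.28 on all 3 TPM scales, against 0.18, and ran from -0.17 to 0.49 with a library left out. PCAT1 in C4-2B ran from -1.23 to 0.16 and MALAT1 between control lines from -0.006 to 0.43 with a library left out, and MALAT1 summed with TALAM1 was -0.006 there. limma on log2(TPM + 1) moved the median of all genes by -0.14 in C4-2B and to 0.53 between lines, and 33.5% of its calls in C4-2B were higher against 59.2% on counts. The replicate block left the counts of called members at 2, 1, 1 and 4. Samples of the same number shared only a number (correlation of deviations 0.06 in C4-2B and 0.04 in NCI-H660), and the block moved the calls over all genes from 3355 to 3536 in C4-2B and from 2745 to 2949 in NCI-H660. Of 319 values of members under alternatives, 274 were counted as the same. Same meant that direction and call were kept, an uncalled value staying uncalled. For DUBR, which was given no call outside the comparison within NCI-H660, it meant within 1 standard error of the main value. With 2 libraries per condition and counts near 0 for PCA3, H19, PCGEM1 and MEG3 in NCI-H660, a response of these members there was not detectable at this depth.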
